A study of Mus musculus with 3 samples.

Results

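Fos, Fosb, Fosl1, Fosl2, Jun, Junb, Jund, Egr1, Atf3 and Ier2 are immediate early genes, and these 10 of the 32285 genes in the files were chosen by name. They were followed in single cells of the stromal vascular fraction (SVF) of subcutaneous inguinal fat, the cells that remain once digested fat has lost its floating adipocytes, after endothelial (CD31+) and leukocyte (CD45+) cells had been sorted away. The 3 animals were male wild-type C57BL/6J mice aged 8 weeks, each gave 1 droplet library, and all belong to 1 condition with no treatment, so every comparison below is between cells of the same mice. Minced fat was kept with collagenase 2 at 37 °C for 60 min in all libraries, and no undigested tissue was measured.

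Immediate early genes are transcribed within minutes of a stimulus from factors that are already present in the cell, without new protein synthesis. The Fos proteins (Fos, Fosb, Fosl1, Fosl2) pair with Jun proteins (Jun, Junb, Jund) or with ATF proteins to form AP-1, a dimer that binds short DNA sites, and Fos proteins do not form stable dimers with themselves. Fosl1 and Fosl2, also called Fra-1 and Fra-2, lack the strong activation domain of Fos and are usually induced later and held longer, and Fosl1 is itself a known AP-1 target. Egr1 is a zinc finger factor, Atf3 a stress-induced member of the ATF family that often represses, and Ier2 an immediate early gene product of the nucleus. In fat, Fos and Jun proteins are known as regulators of adipocyte differentiation. Warm enzymatic digestion is known to induce the same genes in many tissues, together with heat shock genes.

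Cells were gated on raw counts of unique molecular identifiers (UMIs) of 6 genes, none of which is a member and all of which were left out of the tests. The progenitor gate required UMIs of Dpp4 and Pi16 counted together, so either could be absent, and had 7399, 3169 and 9273 cells in mice 1, 2 and 3. The preadipocyte gate likewise required UMIs of Icam1 and Fabp4 counted together and had 2278, 1394 and 1889 cells. The regulatory gate required both Clec11a and Fmo2, markers of adipogenesis-regulatory cells, and had 270, 384 and 404 cells. Each listed marker of the 3 cell types that the gates did not use was highest in its own gate without overlap, except Cygb, a regulatory marker at 534, 611 and 444 CPM in the regulatory gate and 400, 597 and 432 CPM in the preadipocyte gate, which overlapped. Cd55 was at 477 to 1074 counts per 1000000 UMIs (CPM) in the progenitor gate and at most 117 elsewhere, Pparg, the master factor of adipocyte differentiation, was at 47.3 to 54.7 CPM in the preadipocyte gate and at most 7.23 elsewhere, and Mgp was at 825 to 991 CPM in the regulatory gate and at most 76.8 elsewhere. The libraries kept 12984, 6414 and 15179 cells with a median of 7393, 12193 and 6667 UMIs, so mouse 2 was the most deeply sequenced. Regulatory-gate cells were shallower than progenitor-gate cells in each mouse, for example with a median of 4945 against 7329 UMIs in mouse 1. Pairs of libraries shared 52 to 81 cell barcodes.

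The promoters of Fos and Jun are shown because these were the pair whose levels went together most closely across cells. Each line gives the 250 bases before the RefSeq start site (GRCm38.p6), read on the gene's own strand, with a motif in capitals where one was found.

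Fos (chr12:85473640-85473889, plus strand): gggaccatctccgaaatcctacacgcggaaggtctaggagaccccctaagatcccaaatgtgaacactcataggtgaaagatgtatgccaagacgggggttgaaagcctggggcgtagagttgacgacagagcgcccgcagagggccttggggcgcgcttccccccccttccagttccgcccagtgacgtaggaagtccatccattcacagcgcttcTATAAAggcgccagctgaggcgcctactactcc

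Jun (chr4:95052223-95052472, minus strand): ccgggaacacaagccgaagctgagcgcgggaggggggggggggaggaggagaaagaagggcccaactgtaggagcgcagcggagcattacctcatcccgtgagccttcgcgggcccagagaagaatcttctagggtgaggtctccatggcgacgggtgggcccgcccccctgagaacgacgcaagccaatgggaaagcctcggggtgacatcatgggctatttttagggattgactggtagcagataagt

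The Fos window held a TATA box (TATAAA), 33 to 28 bases before the start, a motif present in 12.3% of 32544 promoter windows of this length. The Jun window held none of the 5 motifs searched on both strands. These were the AP-1 site TGACTCA (4.46% of windows), the cAMP response element TGACGTCA (1.55%), the Egr1 site GCGNGGGCG (4.74%), the TATA box and the CArG box of serum response factor (1.48%). Among the 7 members with a window, the Egr1 site was also found in those of Fosb and Fosl2. Exact letters in 250 bases say nothing of variant or more distant sites. Fos lies at chr12:85473890-85477273 and Jun at chr4:95049034-95052222 in the GENCODE annotation of GRCm38. Fosb lies at chr7:19302696-19310051, Fosl1 at chr19:5447547-5455946 and Fosl2 at chr5:32135801-32157842, and Junb, Jund and Ier2 all lie on chromosome 8. Jun and Jund each overlap an antisense gene, and Fosl1 and Junb each overlap a coding gene on the other strand (Ccdc85b and Prdx2).

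In the preadipocyte gate 6 members were higher than in the progenitor gate and 2 were lower. Fos, Fosb, Jun, Jund, Atf3 and Ier2 were higher, whereas Fosl1 and Fosl2 were lower, at 0.243 and 0.235 times their progenitor level. Counts were summed per mouse and gate and tested with edgeR's quasi-likelihood test with mouse as a block. Splits of cells within a gate, given further below, had each pair of mouse and gate as the block. All adjusted p-values below are from edgeR's test, unless another is named, with the Benjamini-Hochberg method over all genes tested. Of 13258 genes, 27.2% were called higher and 29.2% lower at an adjusted p under 0.05, so a call in itself was common between these gates.

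Among the Fos family, Fos was at 3190.3, 2362 and 1685 CPM in the progenitor gates of mice 1, 2 and 3 and at 5266, 3402 and 4110.3 CPM in their preadipocyte gates. The groups did not overlap, and the log2 fold change was 0.78 (SE 0.12, adjusted p = 0.000112). Fosb was at 2381, 1738 and 2039 CPM against 3657, 2263 and 3337 CPM, with a log2 fold change of 0.52 (SE 0.08, adjusted p = 0.000171). It was higher in each mouse, but mouse 2's preadipocyte level lay below mouse 1's progenitor level.

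Fosl1 was at 82.0, 94.6 and 160.0 CPM in the progenitor gate and at 15.0, 27.3 and 46.4 CPM in the preadipocyte gate. The log2 fold change was -2.04 (SE 0.11, adjusted p = 1.58e-08), and mouse 3 was the highest in both gates while its progenitor Fos was the lowest of the 3. In the preadipocyte gate, however, Fos was lowest in mouse 2. Fosl2 was at 376, 462 and 445 CPM against 96.4, 106 and 111 CPM, with a log2 fold change of -2.09 (SE 0.07, adjusted p = 3.01e-10). Neither gene's groups overlapped. Since each droplet read tags the 3′ end of a transcript once, levels of different genes can be set side by side without length. Fos and Fosb made up 47.5% ± 7.52 and 41.3% ± 5.14 (SD, n = 3) of Fos family UMIs in the progenitor gate. Fosl2 made up 8.81% ± 2.24 there and 1.45% ± 0.381 in the preadipocyte gate, and Fosl1 2.36% ± 1.20 and 0.416% ± 0.227.

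Among the Jun family, Jun was at 2164, 1568 and 1347 CPM in the progenitor gate and at 5321, 3731 and 4556 CPM in the preadipocyte gate. Its log2 fold change of 1.38 (SE 0.09, adjusted p = 8.25e-08) was the largest rise of any member, and the groups did not overlap. Jund, which is expressed more constantly than the other Jun genes, was at 2059, 2037 and 2101 CPM against 3265, 3089.9 and 3282 CPM (log2 fold change 0.58, SE 0.07, adjusted p = 1.47e-05). Its mice lay closer together than those of any other member in the progenitor gate. Junb was at 2540.4, 3053 and 2387 CPM against 2684, 2966 and 2690.0 CPM, groups that overlapped, with a log2 fold change of 0.01 (SE 0.07, adjusted p = 0.888). Jun thereby took 42.9% ± 4.56 of Jun family UMIs in the preadipocyte gate against 26.2% ± 5.02 in the progenitor gate, and Junb 26.6% ± 3.36 against 41.4% ± 4.17 (SD, n = 3).

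Of the other members, Ier2 was at 433, 516 and 283 CPM against 1033, 987 and 832 CPM (log2 fold change 1.18, SE 0.13, adjusted p = 5.84e-06), without overlap. Atf3 was at 1024, 600.0 and 716 CPM against 1328, 682 and 1155 CPM (log2 fold change 0.36, SE 0.08, adjusted p = 0.00262). It was higher in each mouse, and the groups overlapped. Egr1 was at 2371, 2189 and 1765 CPM against 2627, 2316 and 2536 CPM, with a log2 fold change of 0.19 (SE 0.09, adjusted p = 0.103), which passed without mouse 1 (log2 fold change 0.27, adjusted p = 0.0341), without TMM scaling (0.25, adjusted p = 0.0497) and with gated cells thinned to 3000 UMIs (0.21, adjusted p = 0.0463). All 10 members summed to 14723 ± 1848 CPM in the progenitor gate (SD, n = 3), and immediate early genes were thus abundant in every gate. In droplet libraries a higher share of a cell's RNA and a higher number of its copies cannot be told apart.

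**Figure D1:**
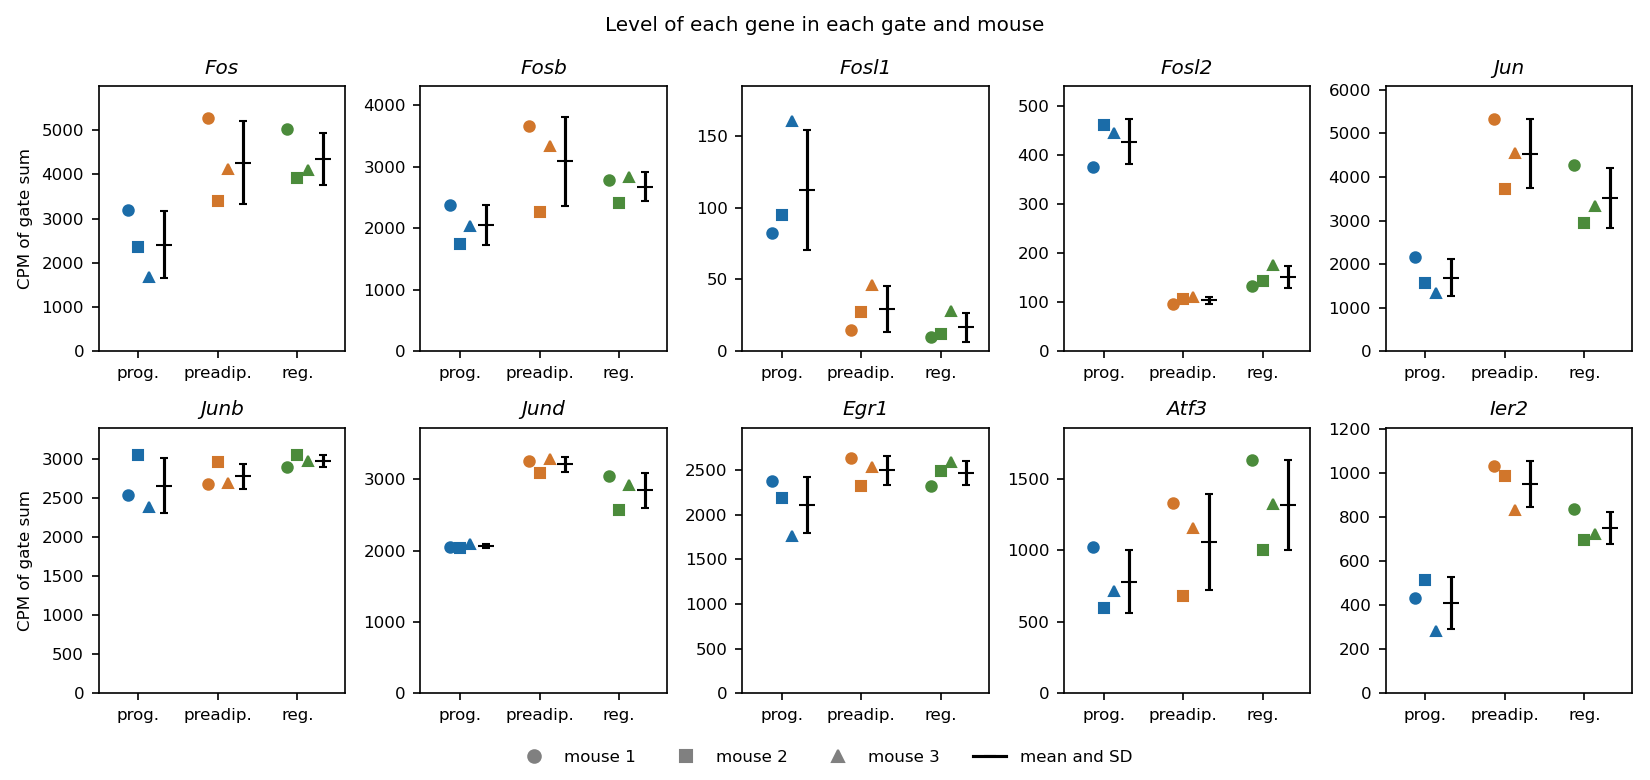
Level of each of the 10 genes in CPM of the summed UMIs (vertical axes, each from 0) in the progenitor, preadipocyte and regulatory gates. Symbols are the 3 mice, and bars are the mean and SD. Fosl1 and Fosl2 are highest in the progenitor gate, where Fos, Jun, Jund and Ier2 are lowest.

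In the regulatory gate 6 members were higher and 2 lower than in the progenitor gate, where 18.9% and 24.0% of the 13258 genes were called higher and lower. This comparison shares its progenitor sums with the previous one. Fos was at 5021, 3918 and 4096 CPM in the regulatory gate (log2 fold change 0.88, SE 0.12, adjusted p = 7.77e-05) and Jun at 4273, 2949 and 3338 CPM (log2 fold change 1.06, SE 0.09, adjusted p = 1.85e-06). Both stood above all 3 progenitor values. Fosl1 was lowest in this gate, at 9.83, 11.9 and 28.4 CPM from 14, 44 and 55 UMIs (log2 fold change -2.84, SE 0.18, adjusted p = 1.14e-07). Fosl2 was at 133, 144 and 177 CPM (log2 fold change -1.51, SE 0.08, adjusted p = 2.31e-08), between the progenitor and preadipocyte levels. Fosb, Jund, Atf3 and Ier2 had log2 fold changes of 0.39, 0.46, 0.76 and 0.90 and passed. Junb and Egr1 did not pass, with 0.17 (adjusted p = 0.0823) and 0.23 (adjusted p = 0.0713), but these calls turned on the processing. Junb passed without mouse 2 (0.27, adjusted p = 0.0448), with gated cells thinned to 3000 UMIs (0.22, adjusted p = 0.0268), with gates set after thinning (0.29, adjusted p = 0.00211) and with DESeq2 (0.19, adjusted p = 0.0207). Egr1 passed without mouse 1 (0.38, adjusted p = 0.00798), with gated cells thinned (0.25, adjusted p = 0.0308) and with gates set after thinning (0.31, adjusted p = 0.00515). Both also passed, at adjusted p of 0.0412 to 0.0498, with DESeq2's size factors and with cells of 2 gates counted in each, Junb with a mitochondrial limit of 10%, and Egr1 without the 10% of cells with most UMIs.

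Set directly against each other, the regulatory and preadipocyte gates differed in 4 members, where 12.3% of genes were called higher and 13.4% lower. Fosl2 was higher in the regulatory gate by 0.58 on the log2 scale (SE 0.08, adjusted p = 0.000215), with no overlap between the gates. Atf3 was higher by 0.40 (SE 0.08, adjusted p = 0.00432), while Jun (-0.32, adjusted p = 0.0228) and Fosl1 (-0.80, adjusted p = 0.0121) were lower. These last 3 calls were lost without mouse 2, where Atf3 was at 0.31 (adjusted p = 0.066), Jun at -0.32 (adjusted p = 0.108) and Fosl1 at -0.56 (adjusted p = 0.177). The other 6 members did not pass, Fos among them at 0.09 (SE 0.12, adjusted p = 0.627). Of these, Junb passed with gates set after thinning (0.28, adjusted p = 0.00616) and Ier2 without the low-count filter (-0.32, adjusted p = 0.000286).

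**Figure D2:**
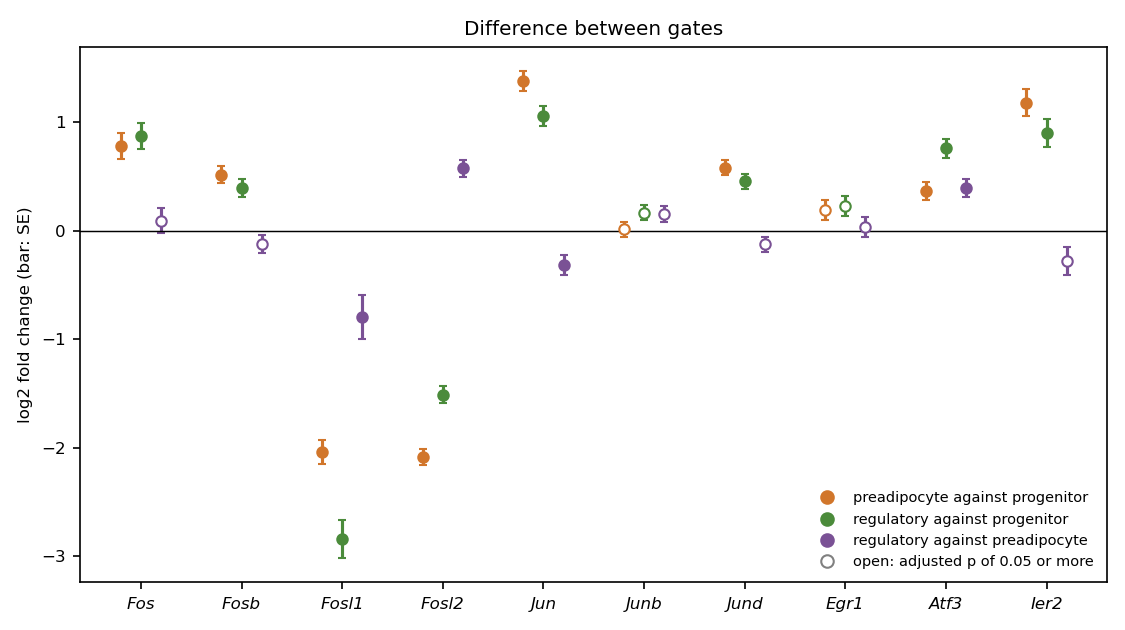
Log2 fold change of each gene between gates (vertical axis), with its SE as the bar. Filled points passed an adjusted p of 0.05, open points did not. Fosl1 and Fosl2 lie below 0 in both comparisons with the progenitor gate, whereas Jun, Ier2 and Fos lie above.

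The genes were next compared between cells of the same gate, since a gate sum cannot show whether members rise in the same cells. Each cell was thinned to 3000 UMIs, which left out shallower cells, so that depth could not make cells look alike. Across progenitor-gate cells, Fos ranged widely: in mouse 1 its lower quartile, median and upper quartile were 2, 7 and 15 UMIs, and the highest cell had 76. Fosl1 was sparse and was found in 17.2%, 18.9% and 30.8% of thinned progenitor cells in mice 1, 2 and 3, against 4.24%, 6.84% and 9.77% in the preadipocyte gate and 2.87%, 2.63% and 7.46% in the regulatory gate. Before thinning, these shares were 28.2%, 36.4% and 45.3% in the progenitor gate. No cell type known to lack Fosl1 was gated, so the part of free RNA in these shares was not tested.

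The pair that went together most was Fos and Jun, with Pearson's r of 0.683, 0.658 and 0.677 across the 6829, 3106 and 8470 thinned progenitor cells of the 3 mice. Fos also went with Egr1 (mean r over mice 0.549), Atf3 (0.478) and Ier2 (0.472). Fosl1 had its lowest r of 2845 genes with Fos (-0.292), Jun (-0.266) and Egr1 (-0.198), and Fosl2 likewise had negative values with Fos (-0.287) and Jun (-0.284). Fosl1 and Fosl2 went weakly together (0.154), but not in the preadipocyte (0.0302) or regulatory gate (-0.00217). Fosl2 had a higher value with Junb (0.198) than with Fosl1 in the progenitor gate. Junb and Fosl2 had 0.122 in the regulatory and 0.0261 in the preadipocyte gate. These values are descriptions across cells that share a library, and sparse counts keep those of Fosl1 small. Of the 45 pairs of members, 28 were above 0 in every mouse and 10 were below 0 in every mouse in the progenitor gate, and 29 and 9 in the preadipocyte gate. Fosb and Jund went together at 0.314 in the progenitor, 0.358 in the preadipocyte and 0.291 in the regulatory gate, where Fosb had a higher value with Egr1 (0.371) and Jund with Junb (0.388). Junb and Fos had 0.376 in the preadipocyte, 0.405 in the regulatory and 0.0884 in the progenitor gate.

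**Figure D3:**
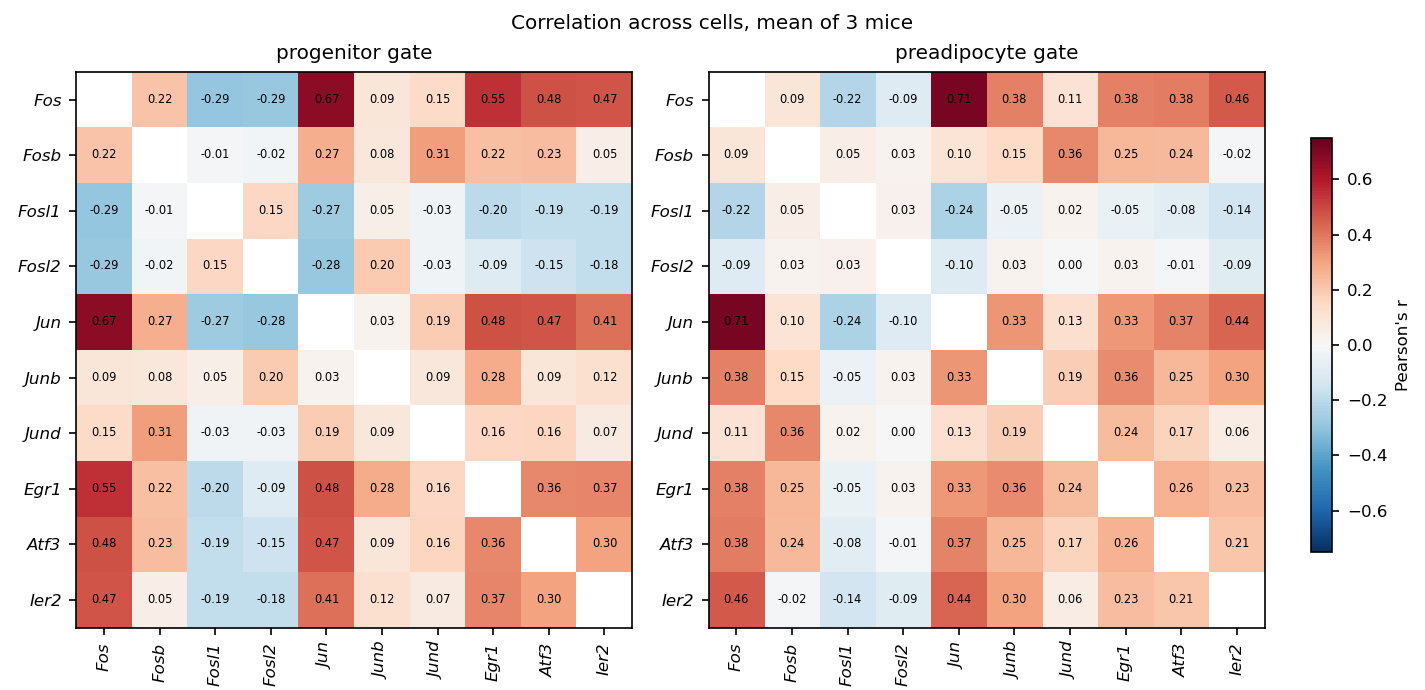
Pearson's r between each pair of genes across thinned cells, as the mean of 3 mice, in the progenitor gate (left) and the preadipocyte gate (right). Fos and Jun have the highest value in both, 0.67 and 0.71, and the rows of Fosl1 and Fosl2 are mostly negative or near 0. In the progenitor gate Fos, Jun, Egr1, Atf3 and Ier2 form the block of high values. In the preadipocyte gate Junb also goes with Fos (0.38), Egr1 (0.36) and Jun (0.33), above Ier2 with Egr1 (0.23) or Atf3 (0.21).

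By the same measure over all genes at 50 CPM or more, Fos was most like Jun, Egr1, Atf3, Ier2 and Dusp1, a phosphatase that switches MAP kinases off (0.470). It was least like Uap1 (-0.409), Nfkb1 (-0.384) and Ugdh (-0.370), where Uap1 and Ugdh make the nucleotide sugars of hyaluronan synthesis and Nfkb1 is an NF-kB subunit. Fosl1 was most like Uap1 (0.227), the chemokine gene Ccl2 (0.223), Nfkb1 (0.221), the chemokine gene Cxcl1 (0.218) and Ugdh (0.217). The same 3 genes, Uap1, Nfkb1 and Ugdh, were thus among the least like Fos and among the most like Fosl1. Among its most alike genes Jund had Fosb (0.314), Klf4 (0.212), Jun (0.188) and Atf3 (0.159), and it was least like Sbsn (-0.144), Mfap5 (-0.136) and mt-Co3 (-0.136).

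For a test over mice, the thinned cells of each mouse and gate were divided by their Fos UMIs into 3 equal parts. The part with most Fos (Fos-high cells) was set against the part with least (Fos-low cells), and Fos itself was left out of the test. In the progenitor gate each part held 2276, 1035 and 2823 cells, and the Fos-high cells had at least 12, 9 and 4 Fos UMIs where the Fos-low cells had at most 3, 2 and 1. Before thinning, Fos-high cells were slightly deeper in each mouse, with medians of 7421, 12411 and 7001 UMIs against 7403, 11785 and 6791 UMIs. Of 10339 genes, 11.2% were called higher and 13.2% lower in Fos-high cells. Of the 9 members tested, 5 were higher and 2 were lower.

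Jun was at 3761, 2892 and 2773 CPM in Fos-high progenitor cells and at 718, 458 and 409 CPM in Fos-low cells, a log2 fold change of 2.50 (SE 0.10, adjusted p = 2.30e-21). Ier2 (2.28, SE 0.09), Atf3 (1.77, SE 0.08) and Egr1 (1.36, SE 0.10) were also higher, with adjusted p of 6.17e-14 or less, and none of these groups overlapped. Fosb passed with a small difference of 0.40 (SE 0.09, adjusted p = 0.00113), which was lost without mouse 1 (0.25, adjusted p = 0.101) and with DESeq2 (0.39, adjusted p = 0.0722). Fosl1 was at 20.8, 18.7 and 62.1 CPM in Fos-high cells and at 160, 180 and 248 CPM in Fos-low cells (log2 fold change -2.60, SE 0.12, adjusted p = 1.30e-19). Fosl2 was at 218, 288 and 297 CPM against 545, 671 and 550.1 CPM (-1.24, SE 0.07, adjusted p = 2.22e-16). Both were lower in the Fos-high cells of each mouse without overlap, so within a single gate they stood opposite to Fos. The split reads the same cells and thinned counts as the r values above, so it is not a second observation of them. Junb (0.10, adjusted p = 0.314) and Jund (0.15, adjusted p = 0.121) did not pass. Without TMM scaling, which moved the median of all genes to 0.11, both passed at 0.20 and 0.25. Jund was higher in the Fos-high cells of each mouse without overlap. It also passed with TMM scaling when the top quartile of cells by Fos was set against the bottom quartile (0.21, adjusted p = 0.0318).

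In the preadipocyte gate, 5 members were again higher in Fos-high cells and 2 were lower, where 3.27% and 7.27% of genes were called higher and lower. Jun was at 7496, 5955 and 7122 CPM against 2865, 1559 and 1783 CPM (log2 fold change 1.71, SE 0.10, adjusted p = 2.23e-16). Ier2 (1.67), Atf3 (1.40) and Egr1 (0.70) were higher too, with adjusted p of 1.15e-06 or less. Junb was at 3470, 3834 and 3551 CPM against 1788, 2300.2 and 1852 CPM (0.82, SE 0.07, adjusted p = 8.43e-12). Fosl1 was lower, at 7.22, 5.15 and 11.5 CPM from 16, 7 and 21 UMIs against 33.4, 53.0 and 85.7 CPM (-2.83, SE 0.29, adjusted p = 1.71e-09). Fosl2 was lower by a smaller amount (-0.65, SE 0.11, adjusted p = 2.76e-05). Fosb (0.05, adjusted p = 0.819) and Jund (0.12, adjusted p = 0.347) did not pass.

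In the regulatory gate, with 69, 114 and 98 cells in each part, 5 members were higher where 0.377% of genes were called higher and 0.754% lower. They were Jun (1.67, adjusted p = 6.48e-14), Atf3 (1.47, adjusted p = 1.23e-12), Ier2 (0.94, adjusted p = 4.22e-07), Junb (0.74, adjusted p = 7.79e-09) and Egr1 (0.63, adjusted p = 0.000292). Fosl1 had 0, 0 and 5 UMIs in the Fos-high cells against 5, 10 and 16 in the Fos-low cells, too few for a fold to be read, and did not pass (adjusted p = 0.159), though it passed without the low-count filter (adjusted p = 0.000753) and with DESeq2 (adjusted p = 0.0365). Fosl2 (-0.61), Fosb (0.34) and Jund (0.29) did not pass, with adjusted p of 0.118, 0.118 and 0.0519.

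**Figure D4:**
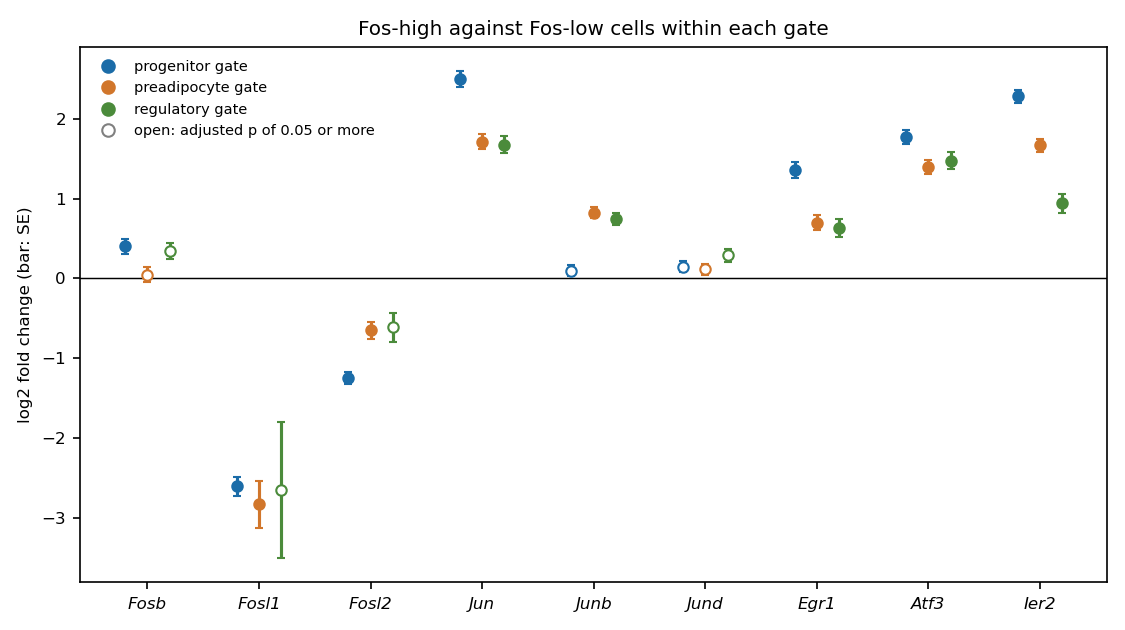
Log2 fold change between Fos-high and Fos-low cells (vertical axis) for the other 9 genes, with SE bars, in each of the 3 gates. Filled points passed an adjusted p of 0.05. Jun, Atf3, Ier2 and Egr1 lie above 0 in all gates and Fosl1 and Fosl2 below, and Junb lies above 0.7 in the preadipocyte and regulatory gates and at 0.10 in the progenitor gate.

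The Fos split differed between the progenitor and preadipocyte gates for 5 of the 9 members, tested as an interaction in which 1.93% of genes were called higher and 0.967% lower. The difference was larger in the progenitor gate for Jun by 0.78 (SE 0.13, adjusted p = 0.000139), for Egr1 by 0.66 (SE 0.14, adjusted p = 0.00214) and for Ier2 by 0.62 (SE 0.12, adjusted p = 0.00074). It was lower in the progenitor gate for Junb by -0.72 (SE 0.10, adjusted p = 2.31e-06) and for Fosl2 by -0.59 (SE 0.13, adjusted p = 0.00435). Fosl2 was lost without mouse 1 (-0.50, adjusted p = 0.16) and at 2000 UMIs (-0.43, adjusted p = 0.107). Egr1 was lost with DESeq2 (0.65, adjusted p = 0.209). Fosl1 did not pass, with a difference of 0.23 (SE 0.36, adjusted p = 0.905), and neither did Fosb, Jund or Atf3. Without the low-count filter Fosb (0.36, adjusted p = 0.0181) and Atf3 (0.38, adjusted p = 0.0232) passed. Atf3 also passed without TMM scaling (0.43, adjusted p = 0.0308). The Fos-low cells of the 2 gates also differed in Fos itself, since Fos-low preadipocyte cells had 1606, 609 and 664 CPM of Fos against 381, 170.0 and 54.4 CPM in Fos-low progenitor cells.

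Seen from the other side, cells with at least 1 Fosl1 UMI were set against cells with none, which reads the same opposition of Fos and Fosl1 in the same cells and is not a second observation of it. There were 1177, 586 and 2608 Fosl1-positive progenitor cells and 94, 93 and 178 preadipocyte cells. The regulatory gate had 6, 9 and 22, too few for a test. In the progenitor gate 5.44% of 11297 genes were called higher and 3.28% lower, and 1 member was higher and 5 lower. Fos was at 1457, 896 and 785 CPM in Fosl1-positive cells against 3539, 2664 and 2046 CPM (log2 fold change -1.34, SE 0.06, adjusted p = 1.42e-24). Jun (-1.10), Ier2 (-1.07), Atf3 (-0.81) and Egr1 (-0.49) were lower as well, with adjusted p of 3.66e-09 or less.

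Fosl2 was the single member higher in Fosl1-positive progenitor cells, at 509, 677 and 525 CPM against 353, 435 and 416 CPM (0.55, SE 0.06, adjusted p = 8.27e-10), without overlap. Fosb (0.03), Junb (0.11) and Jund (0.02) did not pass, with adjusted p of 0.871, 0.246 and 0.891. Junb passed as higher when cells with at least 2 Fosl1 UMIs were set against cells with none (0.17, adjusted p = 0.0174). In the preadipocyte gate, where 2.64% of genes were called higher and 1.16% lower, Fos (-1.07), Ier2 (-1.05), Jun (-0.98) and Atf3 (-0.51) were lower with adjusted p of 1.81e-05 or less. Atf3 was lost there without mouse 3 (-0.28, adjusted p = 0.0934). Fosl2 (0.36, SE 0.14, adjusted p = 0.181) and Egr1 (-0.11, adjusted p = 0.461) did not pass. Neither did Junb (-0.19, adjusted p = 0.058), Fosb (0.21, adjusted p = 0.0818) or Jund (0.12, adjusted p = 0.327). Junb passed without TMM scaling (adjusted p = 0.00309), at 2000 UMIs (0.0138) and without mouse 2 (0.00511). Fosb passed without mouse 3 (0.000808) and without the low-count filter (0.00836), and Egr1 at 2000 UMIs (-0.32, adjusted p = 0.000652).

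**Figure D5:**
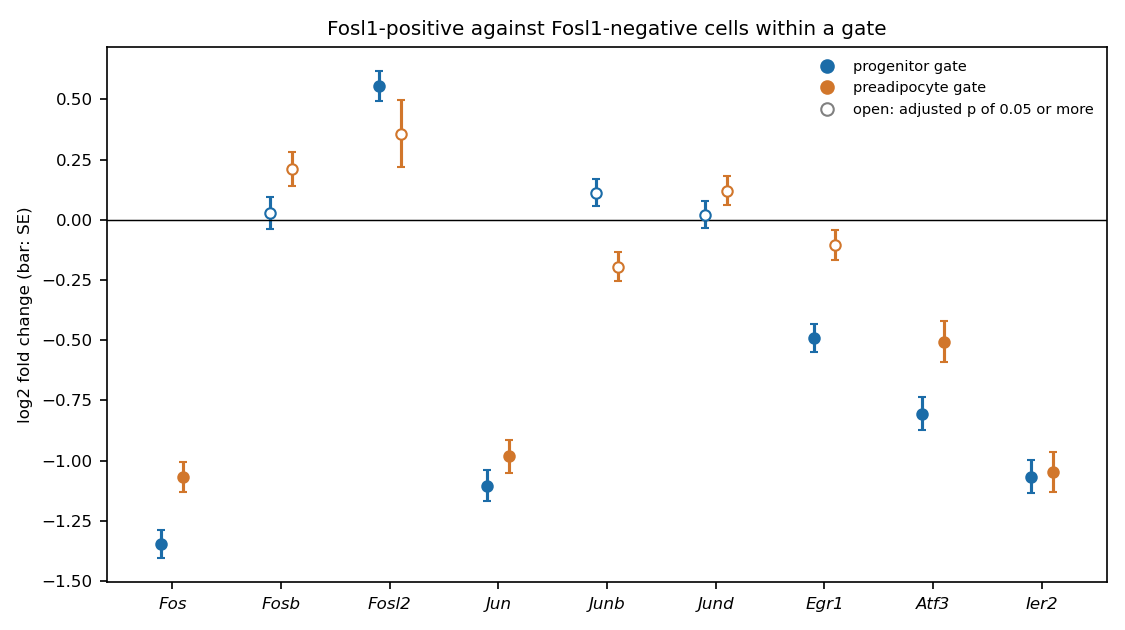
Log2 fold change between Fosl1-positive and Fosl1-negative cells (vertical axis) for the other 9 genes, with SE bars, in the progenitor and preadipocyte gates. Filled points passed an adjusted p of 0.05. Fos, Jun, Ier2 and Atf3 lie below 0 in both gates, and Fosl2 lies above 0, filled in the progenitor gate alone.

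Heat shock genes encode chaperones that are known to be induced along with immediate early genes during warm digestion. Of 12 genes listed, 11 were higher and 1 was lower in the preadipocyte than in the progenitor gate. The lower gene, Hspb1, was named after its value was seen, and its sign was not the same in each mouse. The 12 genes had a median log2 fold change of 1.03 against 0.00 over all genes. Their summed level was 7513, 6766 and 9037 CPM in the progenitor gate, 13720, 10505 and 16408 CPM in the preadipocyte gate and 9027, 8226 and 11085 CPM in the regulatory gate. In the regulatory gate 8 were higher and 1 lower than in the progenitor gate, and 1 was higher and 10 were lower than in the preadipocyte gate (median -0.42), a comparison in which Fos did not pass and Fosl1 was lower. Within the progenitor gate, 12 of 12 were higher in Fos-high cells, led by Hspa1a (2.09) and Hspa1b (1.92), and in the preadipocyte gate 11 were higher and none lower, led by Hspb1 (1.58). In Fosl1-positive cells 11 of 12 were lower in the progenitor gate, led by Hspa1a (-1.21), and 10 of 12 in the preadipocyte gate. Of all genes tested, 27.2% were called higher and 29.2% lower in the preadipocyte than in the progenitor gate. In the regulatory gate 18.9% were higher and 24.0% lower than in the progenitor gate, and 12.3% and 13.4% than in the preadipocyte gate. In Fos-high cells 11.2%, 3.27% and 0.377% were higher in the progenitor, preadipocyte and regulatory gates. In Fosl1-positive cells 3.28% and 1.16% were lower in the progenitor and preadipocyte gates. Of the 12 heat shock genes, 9 were higher in Fos-high cells of the regulatory gate and none lower. All libraries were digested alike, so the state of these genes in the tissue and their induction during digestion cannot be told apart.

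The 24 other immediate early genes were divided in direction in every comparison of gates. Against the progenitor gate, 12 were higher in the preadipocyte gate, led by Egr3 (2.49) and Egr2 (2.25), and 9 were lower, led by the nuclear receptor genes Nr4a3 (-3.78) and Nr4a2 (-3.25). In Fos-high progenitor cells 11 were higher, led by Ccn1 (1.68) and Dusp1 (1.66), and 10 were lower, led again by Nr4a3 (-1.78) and Nr4a2 (-1.69). In Fosl1-positive progenitor cells 8 were higher, led by Nr4a3 (0.88) and Nr4a2 (0.87), and 9 were lower, led by Dusp1 (-0.75) and Ccn1 (-0.71). The medians of this list were near 0 in both splits, at -0.03 and 0.12. In the regulatory gate 9 were higher and 9 lower than in the progenitor gate, and Nr4a2 was higher there than in the preadipocyte gate by 2.34. Of all genes tested, 27.2% and 29.2% were called higher and lower in the preadipocyte gate against the progenitor gate. These shares were 18.9% and 24.0% in the regulatory gate against the progenitor gate. They were 11.2% and 13.2% in Fos-high and 5.44% and 3.28% in Fosl1-positive progenitor cells.

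Of 19 known AP-1 target genes, 15 were tested in the Fos split and 9 of them were lower in Fos-high progenitor cells, led by Ccl2 (-1.97) and the heme oxygenase gene Hmox1 (-1.97), while 1 was higher. In the preadipocyte gate 8 were lower, led by Ccl2 (-1.79) and the metalloproteinase inhibitor gene Timp1 (-1.72), and none was higher. In Fosl1-positive cells 9 of 16 were higher in the progenitor gate, among them Il11 (1.42) and Ccl2 (1.05), and 2 were lower. In the preadipocyte gate 8 of 16 were higher, led by the urokinase receptor gene Plaur (1.52) and the integrin gene Itga5 (1.28), and none lower. Between the gates themselves the list was divided, with 7 of 16 higher and 8 lower in the preadipocyte gate. Of all genes tested, 27.2% and 29.2% were called higher and lower there. In Fos-high cells these shares were 11.2% and 13.2% in the progenitor gate and 3.27% and 7.27% in the preadipocyte gate. In Fosl1-positive cells they were 5.44% and 3.28% in the progenitor gate and 2.64% and 1.16% in the preadipocyte gate. In the difference of the Fos split between gates, progenitor minus preadipocyte, 6 of 15 were higher and 2 lower. Of all genes, 1.93% were called higher and 0.967% lower in that test. Hmox1 was among the 2 that were lower, with a difference of -2.21 (adjusted p = 1.43e-12).

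The remaining lists held partners and inputs of the members. Of 18 other AP-1 dimer partners, 16 were tested in the Fos split, and in the progenitor gate 6 were lower in Fos-high cells, led by the cAMP-response factor gene Crem (-1.47) and the antioxidant factor gene Nfe2l2 (-0.69), and 1 was higher. In Fosl1-positive progenitor cells 6 were higher, led by Crem (0.62) and Nfe2l2 (0.43), and 1 was lower. Between the gates, 5 of 17 were higher in the preadipocyte gate, and 6 were lower, led by Crem (-1.70). Of all genes tested, 27.2% and 29.2% were called higher and lower between these gates, and the counts of this list lay near those shares. The shares were 11.2% and 13.2% in Fos-high and 5.44% and 3.28% in Fosl1-positive progenitor cells. Of 8 Egr1 corepressors and targets, 6 were higher in the preadipocyte than in the progenitor gate, led by the thrombospondin gene Thbs1 (4.25), and 2 were lower. These were Id3 (-1.185) and the corepressor gene Nab2 (-0.25). Summed over the 8 genes, the level was 1144, 1360 and 961 CPM in the progenitor gates of mice 1, 2 and 3. It was lower in the preadipocyte gate of each mouse, at 799, 948 and 899 CPM. In Fos-high progenitor cells, where Egr1 was higher, 3 of the 8 were lower, led by the sphingosine kinase gene Sphk1 (-1.73), and 1 was higher, Id3 (0.22). The 10 MAP kinase and serum response factor inputs were mostly not called: none was higher and 2 lower in Fos-high progenitor cells, among them Elk4 (-0.29), and none was called in the other splits, while between the gates 1 was higher and 5 were lower in the preadipocyte gate, led by Mapk9 (-1.16).

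Markers of other cell types were low in all gates but not equal. The 5 mural markers summed to 4.25 ± 1.25 CPM in the progenitor gate and 40.3 ± 9.15 CPM in the preadipocyte gate, and 5 endothelial markers to 4.55 ± 3.33 and 27.5 ± 23.9 CPM (SD, n = 3). The regulatory gate had 9.92 ± 2.16 CPM of the mural and 4.56 ± 0.995 CPM of the endothelial markers. Schwann cell markers, 4 in all, were highest in the progenitor gate, at 22.3 ± 3.37 CPM, against 4.55 ± 0.849 CPM in the preadipocyte and 6.07 ± 0.340 CPM in the regulatory gate. Erythroid markers, also 4, were at 16.7 ± 10.7 CPM in the progenitor and 8.60 ± 10.6 CPM in the preadipocyte gate, which overlapped, and at 0.702 to 4.65 CPM in the regulatory gate. The 5 leukocyte markers were at 3.34 to 7.53 CPM in the progenitor gate, 4.13 to 5.16 CPM in the preadipocyte gate and 4.65 to 13.3 CPM in the regulatory gate. Median mitochondrial shares were 1.29%, 1.93% and 1.48% in progenitor cells and 1.67%, 2.69% and 2.01% in preadipocyte cells. The part of these differences in the gate comparisons was not tested. Fos-high and Fos-low progenitor cells had mitochondrial medians of 1.26% and 1.31% in mouse 1, 1.86% and 1.98% in mouse 2, and 1.48% in both in mouse 3.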

How the data were processed

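Single cells of 3 wild-type mice were measured, 1 library each. The authors deposited UMI counts per gene and cell barcode, not normalized, made with Cell Ranger on mm10. The version is 4.0.0 in the file headers and 2.1.1 in the submitters' processing notes. Barcodes with more than 500 genes and under 5% mitochondrial UMIs were kept (94816520, 78108414 and 99328725 UMIs). The progenitor gate required at least 3 UMIs of Dpp4 and Pi16 together and at most 1 of Icam1 and Fabp4 together. The preadipocyte gate required at least 4 of Icam1 and Fabp4 together and at most 1 of Dpp4. The regulatory gate required at least 1 each of Clec11a and Fmo2 and at most 1 each of Fabp4 and Dpp4. Cells in 2 gates (49, 119 and 96) were left out. Doublets were not called, and leaving out the 10% of cells with most UMIs was an alternative.

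Sums per mouse and gate, or per split of cells thinned to 3000 UMIs, were tested with edgeR 4.0.16 (R 4.3.3, filterByExpr, TMM, quasi-likelihood test). The block was mouse for the gate comparisons and each pair of mouse and gate for the splits. Adjustment was by the Benjamini-Hochberg method over all genes tested. Splits used the same cells that were tested, so their p-values are over mice but the split gene chose the cells. The members and lists were chosen with earlier results of these data known. Every member was named. From each list, names were given for at most 2 rises and 2 falls that passed and agreed in sign across mice, and for Fos, Fosl1 and Jund the 5 most and 3 least alike genes. Some genes that these rules name are not reported here. Sums of 1 mouse come from 1 animal, and after gate means were removed they correlated with r from 0.153 to 0.676 over 13264 genes. Libraries were distinct, with a chi-squared statistic between gene totals of 64.0 to 231 for each degree of freedom. The edgeR fit was tried on simulated sums for a gate comparison and for a Fos split. No cells were chosen by a gene's counts in that simulation, so it does not cover that step. Alternatives changed scaling, filter, test (DESeq2 1.42.0), block, gates, thinning depth and seed, and left out each mouse. Promoters are from RefSeq.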

Additional observations from a re-analysis of the deposited data

Results flagged for a closer look

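The difference between Fos-high and Fos-low cells was not the same in the progenitor and preadipocyte gates for 5 genes, by the interaction test in edgeR over 3 mice. The log2 difference of the split, progenitor minus preadipocyte, was 0.78 for Jun, 0.66 for Egr1 and 0.62 for Ier2. It was -0.72 for Junb, which rose with Fos in the preadipocyte gate, and -0.59 for Fosl2, whose fall was deeper in the progenitor gate. Fosl2 did not pass without mouse 1 or at 2000 UMIs, and Egr1 did not pass with DESeq2. The Fos-low cells of the preadipocyte gate held more Fos than those of the progenitor gate, and the part of that gap in these values was not tested.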

How the results depend on the processing

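Of 1005 member values under alternatives, 914 kept their direction and side of the threshold, 35 fell short of it, 43 newly passed and 13 changed sign, none of which passed in the main test. Between preadipocyte and progenitor gates Junb turned to -0.0075 without the low-count filter and ranged from -0.033 (without mouse 3) to 0.075 leaving out each mouse. Between regulatory and preadipocyte gates Egr1 turned to -0.015 without TMM and ranged from -0.0036 (without mouse 2) to 0.11. In the Fos split of the preadipocyte gate Fosb ranged from -0.033 (without mouse 1) to 0.17, at -0.025 without mouse 3. For the difference of that split between gates, Jund turned to -0.00163 with the second thinning seed and Fosl1 ranged from -0.45 (without mouse 3) to 0.65. In the Fosl1 split of the progenitor gate Fosb turned to -0.035 without TMM and -0.037 with at least 2 Fosl1 UMIs and ranged from -0.086 (without mouse 2) to 0.12, and Jund turned to -0.043 without TMM and ranged from -0.047 (without mouse 2) to 0.097.

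Without the replicate block, which ignores that the sums of a mouse are paired, genes called fell from 7471 to 3995 (preadipocyte against progenitor), from 5693 to 3130 (regulatory against progenitor) and from 3403 to 1530 (regulatory against preadipocyte, with 1 member higher and 0 lower). In the Fos split they fell from 2521 to 394, from 1090 to 206 (1 member lower) and from 117 to 16 (2 members higher) in the progenitor, preadipocyte and regulatory gates, and from 300 to 3 for the difference between gates (0 members higher, 0 lower). In the Fosl1 split they fell from 986 to 3 (0 members higher, 0 lower) and from 429 to 6 (0 members lower) in the progenitor and preadipocyte gates. Gates set after thinning gave 3368 and 1890 calls for the regulatory gate against the other two, and thinned gated cells gave 2097 against the preadipocyte gate. DESeq2 gave 1550 in the Fos split of the progenitor gate, 175 for the difference between gates, 345 in the Fosl1 split of the progenitor gate, and 2 members lower in the regulatory Fos split. Without the low-count filter the regulatory Fos split had 208 calls and 2 members lower, the difference between gates had 5 members higher and the preadipocyte Fosl1 split had 1 member higher. The regulatory Fos split had 1 member lower with the second seed and 1 when cells were divided into 4 parts, and the progenitor Fosl1 split had 2 members higher with at least 2 Fosl1 UMIs. At 2000 UMIs the difference between gates had 1 member lower and the preadipocyte Fosl1 split 278 calls. Leaving out each mouse gave 2052 to 2799 calls (regulatory against preadipocyte, with 1 to 2 members higher and 0 to 2 lower, lowest without mouse 2). In the Fos split it gave 1394 to 2055 (progenitor) and 624 to 921 (preadipocyte), lowest without mouse 3 in both and at 684 without mouse 2 in the latter, and 0 to 1 members lower in the regulatory gate. For the difference between gates it gave 162 (without mouse 3) to 224 calls and 1 (without mouse 1) to 2 members lower. In the Fosl1 split it gave 534 to 855 calls in the progenitor gate, lowest without mouse 1 and at 619 without mouse 3, and 0 to 1 members higher in the preadipocyte gate. The causes were not tested. Low counts limit Fosl1, which had 14 UMIs in the regulatory gate of mouse 1 and 7 in the Fos-high preadipocyte cells of mouse 2.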

Other observations

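Cells in no gate, 2988, 1348 and 3517 in mice 1, 2 and 3, had Fos at 4500, 3001 and 3002 CPM and Fosl1 at 30.9, 45.1 and 79.2 CPM. Both lay between the progenitor and preadipocyte levels of the same mouse in each of the 3 mice.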
